A study of Mus musculus with 9 samples.

Results

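The genes described here are 39 immediate early and activity-dependent genes, transcription factors and effectors that neurons and other cells switch on after stimulation. The list was chosen with earlier results of these data known. Its shares beside those of all genes therefore describe the list and are no independent test. The members were found by symbol in the table of gene counts, where all 39 of 39 had 1 row each among 21899 genes. All 39 were among the 14837 genes with enough counts to be tested. The RNA came from the PVT (paraventricular thalamus, a midline nucleus involved in arousal) of wild-type mice. One group had received phosphate-buffered saline (PBS) and was sampled after 1 day, and 2 groups had received LPS (lipopolysaccharide from the bacterial outer membrane, sensed by the immune receptor TLR4) and were sampled after 1 day or after 7 days. Injections were intraperitoneal, and each group holds 3 libraries. The sources used here give no dose, strain, age or sex. A PBS group of 7 days was not analysed here. Day and treatment therefore cannot be told apart where LPS at 7 days is set against PBS. Y-linked transcripts were nearly absent from the PBS libraries and present in all LPS libraries, as given below. In both comparisons with PBS, at 1 day and at 7 days, this sex-linked difference cannot be told apart from LPS. Whether the libraries of a group are separate animals is not stated in the labels, and p-values then measure only a spread between libraries that may be technical.

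Immediate early genes are transcribed within minutes of a stimulus without new protein synthesis, because the factors that drive them (CREB, SRF with its partners, and MEF2) are already in the cell and are switched on by calcium and by the ERK kinase cascade. Their products include transcription factors of the AP-1, EGR and NR4A families, which then drive later genes, as well as effectors that act at synapses and phosphatases that shut ERK off again. In the brain the level of Fos, Arc or Npas4 RNA is widely used as a readout of recent neuronal firing, while members such as Atf3, Maff and Klf4 also answer to inflammatory and stress signals in glia and vessels.

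One day after LPS most of these genes were lower than in PBS. Of the 39 members 28 fell, 6 rose and 5 did not pass the test (edgeR quasi-likelihood, Benjamini-Hochberg adjusted p under 0.05 over all genes tested). That is 87.2% of the members called beside 49.1% of all genes, 71.8% lower beside 24.2% and 15.4% higher beside 24.9%. In 35 members the 3 LPS libraries did not overlap the 3 PBS libraries, 89.7% beside 54.5% of all genes. The median log2 fold change of the members was -0.50, against -0.01 over all genes tested. Of 31 tested activity-induced genes outside the list, 10 rose and 11 fell (median 0.03), as given below. Falls were deepest for the transcription factors Egr2, Egr4 and Npas4 and for the synaptic gene Arc, and the 6 members that rose were Maff, Atf3, Csrnp1, Klf4, Klf6 and Tiparp. Against a fold of 1.5, 12 members were called, 10 lower and 2 higher, beside 4.36% of all genes.

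At 7 days after LPS, set against the same PBS libraries, 26 members were lower, 1 was higher and 12 did not pass. These are 69.2% called beside 35.6% of all genes, 66.7% lower beside 18.9% and 2.56% higher beside 16.8%. The libraries did not overlap in 27 members, 69.2% beside 44.2% of all genes. The median log2 fold change was -0.38, against 0.00 over all genes. At 1 day 7 members were called lower by a factor of 2 or more, beside 1.21% of all genes. No member was at 7 days, again beside 1.21%, and 0 of 39 is close to that share. The 1 higher member was Dusp5, a phosphatase of ERK, and a test against a fold of 1.5 called 4 members (3.63% of all genes). Both comparisons use the same 3 PBS libraries.

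Between the LPS groups themselves, 16 members were higher at 7 days than at 1 day, 11 were lower and 12 did not pass. Here the share called, 69.2%, lay closer to that of all genes (56.6%), and the median log2 fold change was 0.07 against 0.00. Higher at 7 days were 41.0% of the members beside 27.5% of all genes, and lower were 28.2% beside 29.1%. The libraries did not overlap in 27 members, 69.2% beside 60.6% of all genes. Against a fold of 1.5, 9 members were called, 6 higher and 3 lower, beside 8.47% of all genes. The members thus split in this comparison: Fos, Npas4, Egr2, Egr4, Arc and Bdnf stood higher at 7 days, and Atf3, Maff, Csrnp1, Klf4, Klf6 and Tiparp stood lower.

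**Figure D1:**
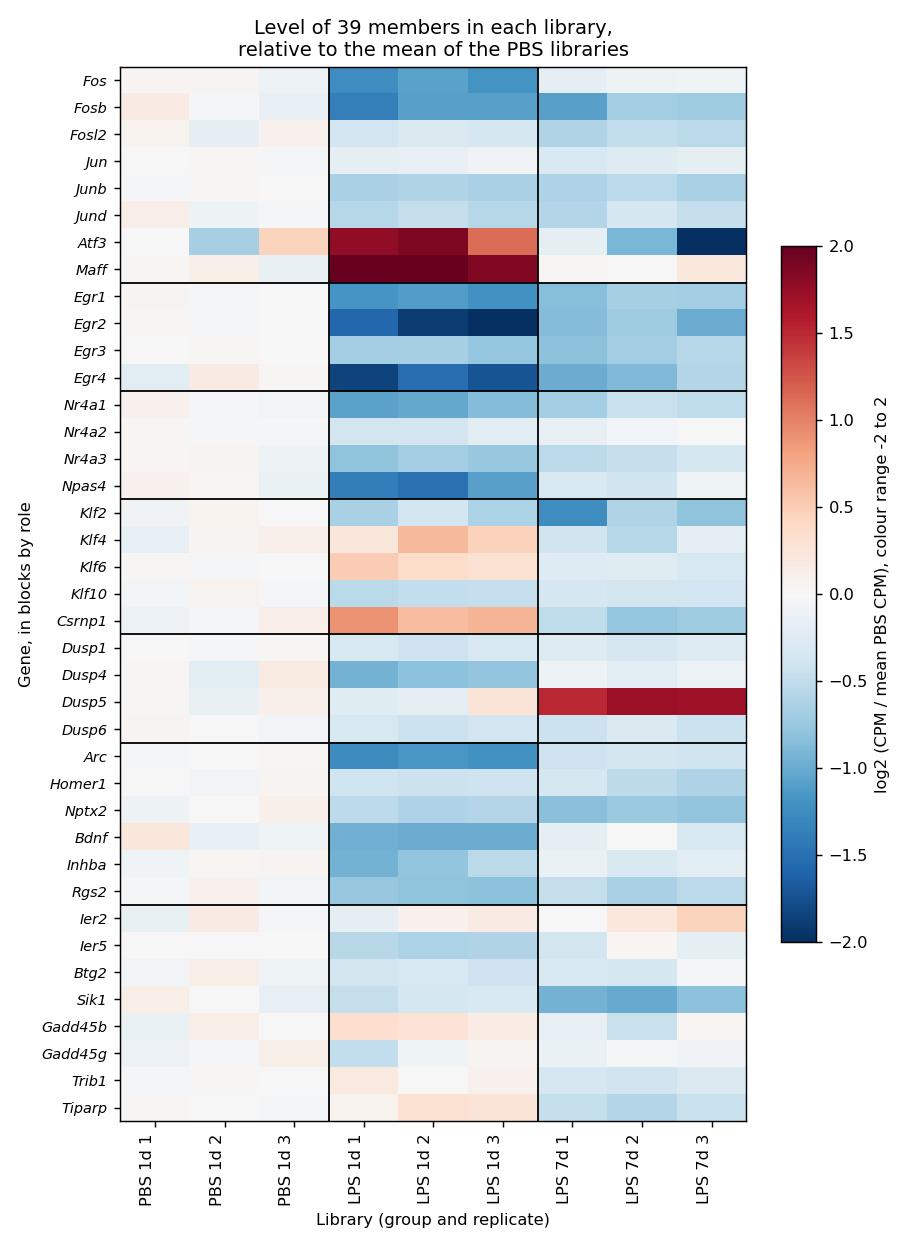
Each row is 1 of the 39 members, in blocks by role, and each column 1 of the 9 libraries. Colour gives log2 of the CPM (counts scaled to a common library total after TMM) over the mean of the PBS libraries, limited to -2 to 2, which single values of Atf3, Maff and Egr2 exceed. Blue rows dominate the LPS 1 day columns, with Atf3, Maff, Csrnp1, Klf4 and Klf6 in red, and Dusp5 is red at 7 days.

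**Figure D2:**
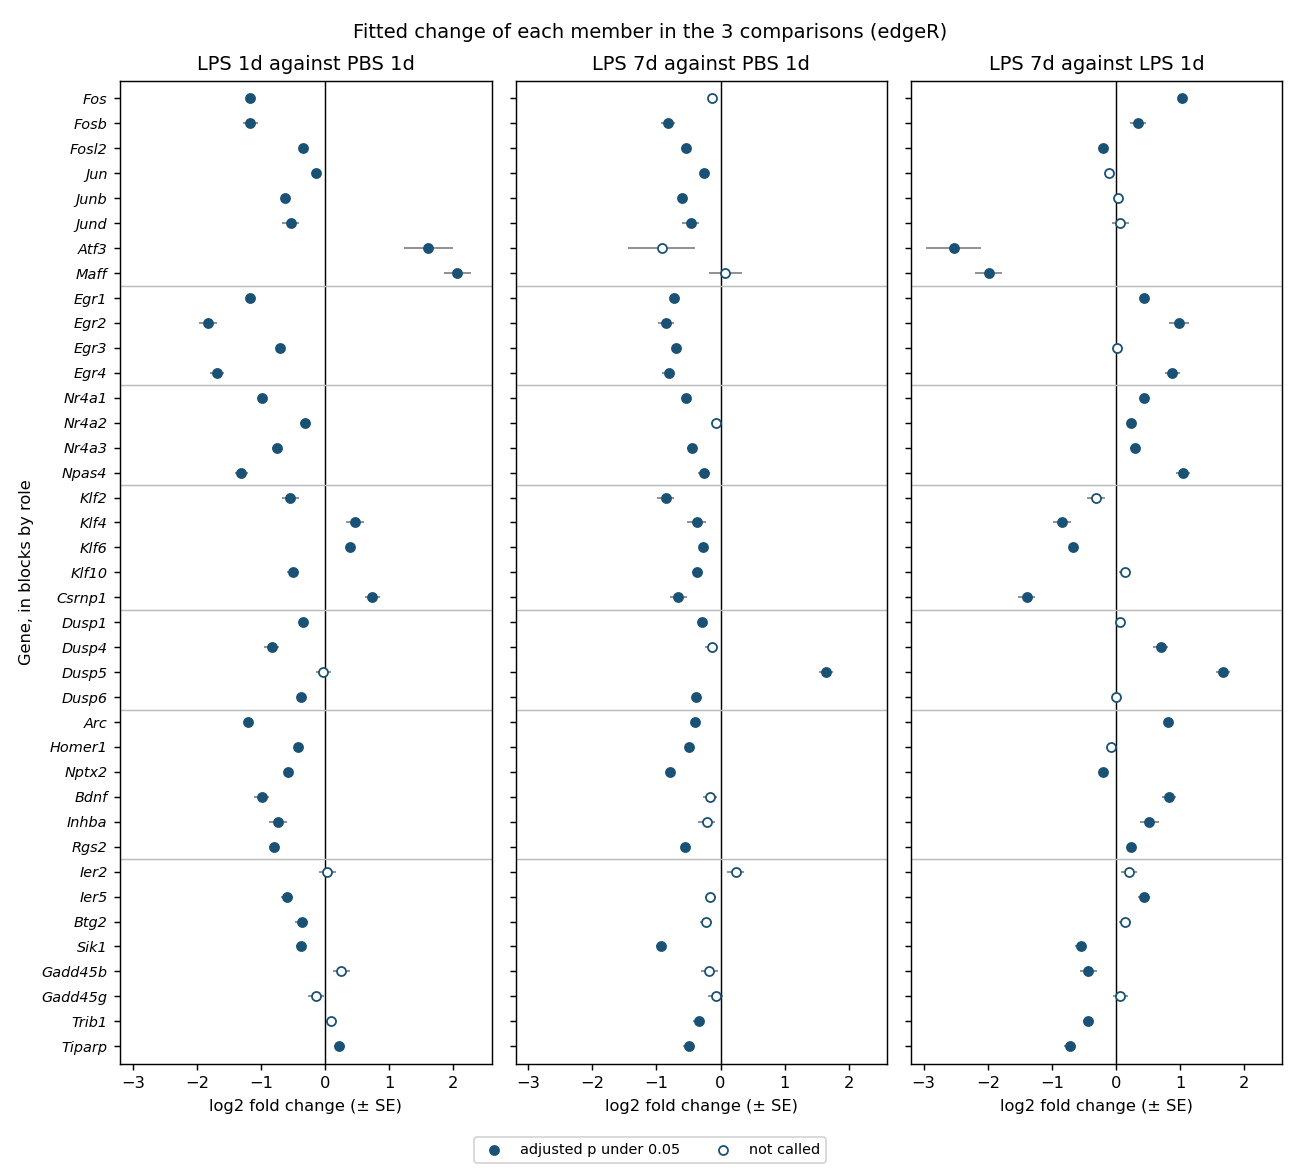
The 3 panels give the fitted log2 fold change of each member (point) with its SE (bar), filled where the edgeR adjusted p was under 0.05. At 1 day 28 filled points lie left of 0 and 6 right of it, at 7 days against PBS 26 left and 1 right (Dusp5), and between the LPS groups 11 left and 16 right.

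**Figure D3:**
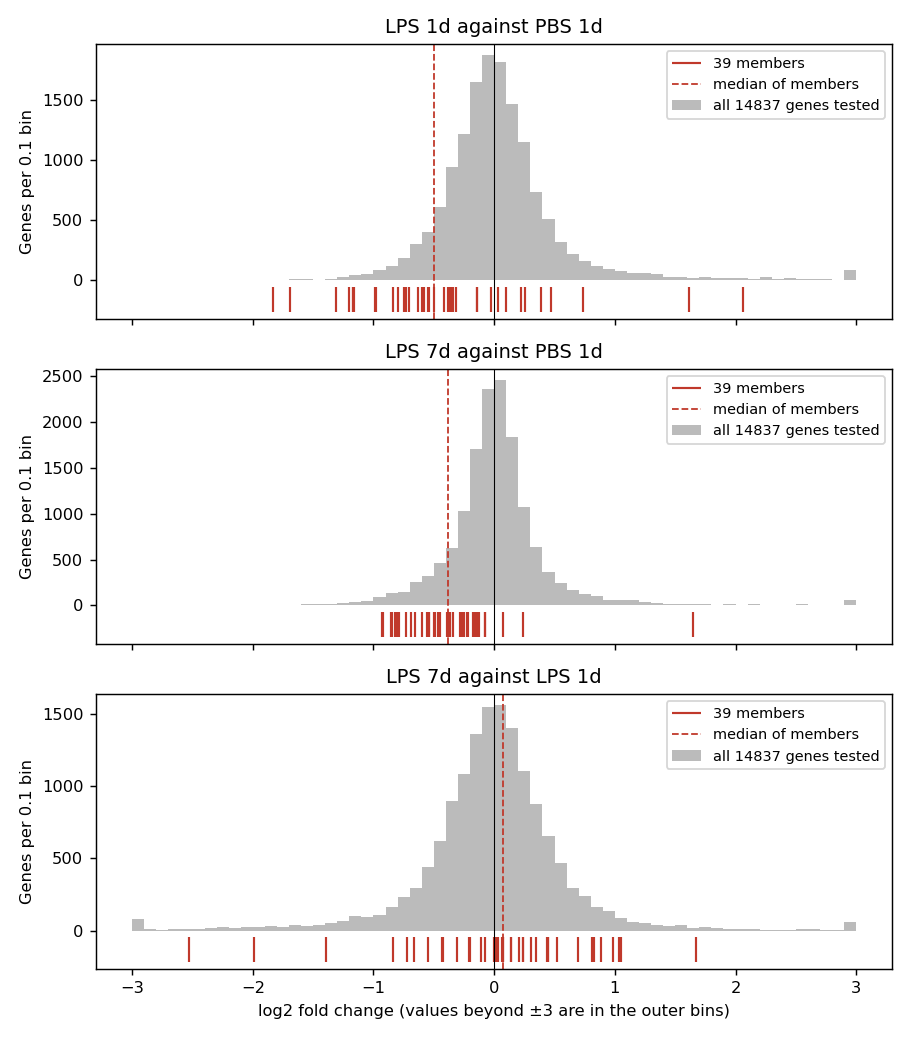
Grey bars count all 14837 genes tested by log2 fold change in bins of 0.1, red ticks mark the 39 members, and the dashed line is their median. The median lies at -0.50 at 1 day, -0.38 at 7 days against PBS and 0.07 between the LPS groups, beside medians of all genes within 0.01 of 0.

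The libraries were alike in depth, with 13211422 to 17210526 gene counts each, and the members had between 2 and 3447 counts per library. The groups differ in more than day and treatment. Y-linked transcripts (4 genes) summed to 0 to 0.0588 CPM in PBS, where Ddx3y, Uty and Eif2s3y had no count, and to 81.5 to 85.2 CPM 1 day and 90.5 to 102 CPM 7 days after LPS. A list of 13 striatal marker genes summed to 2575 to 2648 CPM in PBS, 1592 to 1597 CPM 1 day after LPS and 1192 to 1211 CPM at 7 days. A list of 13 cerebellar markers summed to 352 to 362 CPM in PBS, 291 to 307 CPM 1 day after LPS and 1934 to 1959.6 CPM at 7 days. Its PBS sum was led by Calb1, Zic1 and Cbln1, with means of 146, 96.4 and 64.0 CPM. Other members were nearly absent before 7 days. Over the 3 libraries of a group Gabra6 had 4, 1 and 8102 counts (PBS, then 1 day and 7 days after LPS). In the same order Cbln3 had 23, 32 and 15577 counts and Fat2 had 8, 19 and 11725. General neuronal genes (10 in number) summed to 6679.5 to 6887 CPM in PBS, 6883 to 7016 CPM 1 day after LPS and 6610.2 to 6832 CPM at 7 days. The PBS range overlaps both others, at 1 day only between 6883.4 and 6886.8 CPM. Singly, 3 of these genes rose and 5 fell at 1 day, 80% called beside 49.1% of all genes. At 7 days against PBS 6 rose and 2 fell, 80% called beside 35.6%. PVT and midline thalamic markers (11 genes, among them Calb2, Slc17a6 and the striatal gene Drd2) were all detected, at 723 to 737 CPM in PBS, 513 to 530.0 CPM 1 day after LPS and 594 to 618 CPM at 7 days in sum. Within this list Calb2 had mean levels of 97.1, 73.8 and 159.8 CPM in the same order and was called higher at 7 days than in PBS, whereas Necab1 (195, 148 and 115 CPM) and Tcf7l2 (67.0, 49.7 and 40.6 CPM) were lowest at 7 days. Cortical and hippocampal markers (11 genes) summed to 1528 to 1632 CPM in PBS. Their sum was 1794 to 1823 CPM 1 day after LPS and 1241 to 1279 CPM at 7 days. Slc17a7 led this list, with means of 707, 869 and 645 CPM in the same order. Of the lists named here, none had a member at 0 in a group apart from the Y-linked one. Which part these shifts have in the changes below was not tested, the sex-linked difference cannot be told apart from LPS against PBS, and in whole tissue fewer cells of a type and less RNA per cell cannot be told apart.

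**Figure D4:**
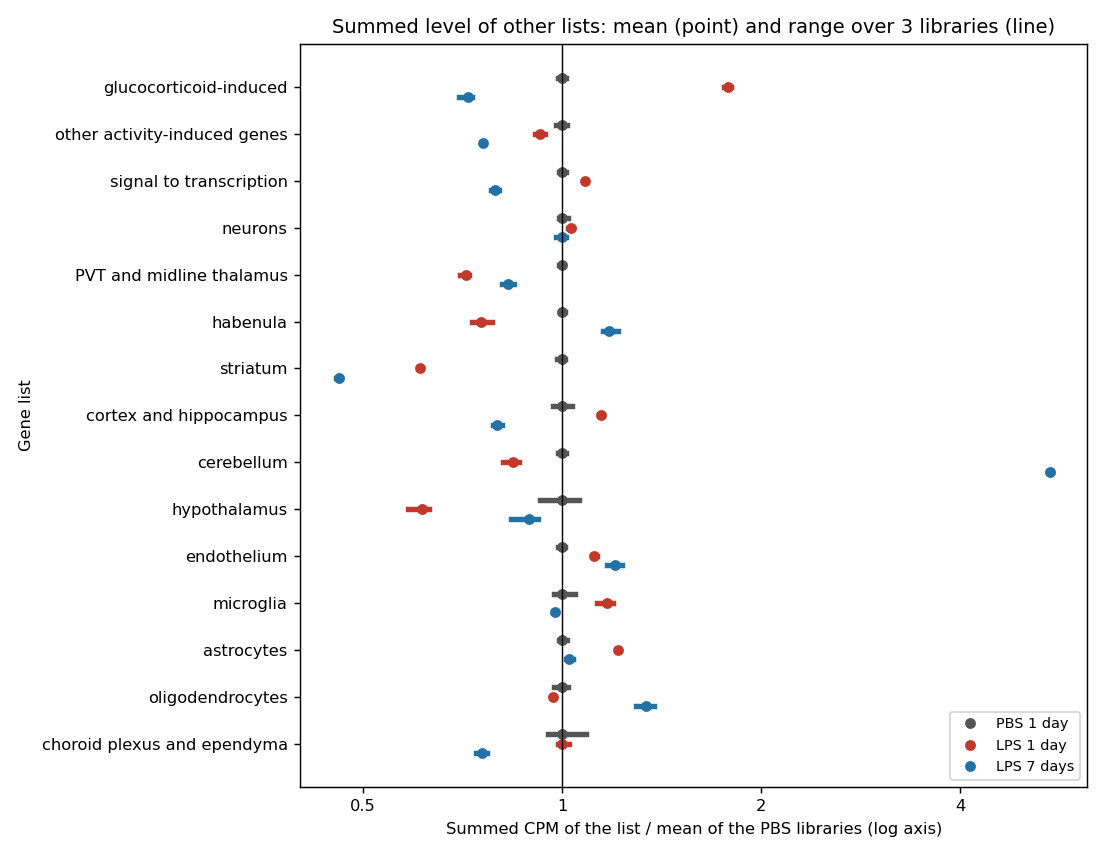
For 15 gene lists the summed CPM of each group is drawn relative to the mean of the PBS libraries on a log axis, as the mean (point) and the range over 3 libraries (line). Striatal markers stand below 1 in both LPS groups, cerebellar markers stand highest at 7 days, glucocorticoid-induced genes stand above 1 at 1 day and below 1 at 7 days, and general neuronal genes stay close to 1.

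Promoter sequence is shown for 6 members whose response the results turn on, because the factors that drive these genes bind short motifs near the start site. RefSeq windows from 250 bases before to 50 bases after a start (GRCm38.p6) were matched for 30 members (46 windows). Those below belong to the 4 members with 1 window that fell most at 1 day (Egr4, Npas4, Fosb and Fos), to Atf3, which rose at 1 day, and to Dusp5, which rose at 7 days. They read 5′ to 3′ on the strand of the gene, and capitals mark a match, on either strand, to a CRE core (CGTCA), the full CRE (TGACGTCA), an AP-1 site (TGANTCA), an EGR site (GCGNGGGCG), a CArG box, a kappaB site or TATAAA.
Egr4, chr6:85513540-85513839, minus strand: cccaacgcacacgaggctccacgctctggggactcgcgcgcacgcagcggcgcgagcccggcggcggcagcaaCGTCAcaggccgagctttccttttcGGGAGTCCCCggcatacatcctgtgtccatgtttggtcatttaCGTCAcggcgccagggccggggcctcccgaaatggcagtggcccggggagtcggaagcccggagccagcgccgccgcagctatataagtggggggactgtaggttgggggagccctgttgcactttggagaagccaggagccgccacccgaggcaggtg
Npas4, chr19:4989922-4990221, minus strand: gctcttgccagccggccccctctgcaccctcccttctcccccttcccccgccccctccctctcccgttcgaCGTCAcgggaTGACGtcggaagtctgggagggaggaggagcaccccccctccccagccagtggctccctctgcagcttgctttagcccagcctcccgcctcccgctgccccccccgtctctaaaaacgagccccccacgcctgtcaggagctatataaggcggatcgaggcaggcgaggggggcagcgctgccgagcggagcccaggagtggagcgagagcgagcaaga
Fosb, chr7:19309996-19310295, minus strand: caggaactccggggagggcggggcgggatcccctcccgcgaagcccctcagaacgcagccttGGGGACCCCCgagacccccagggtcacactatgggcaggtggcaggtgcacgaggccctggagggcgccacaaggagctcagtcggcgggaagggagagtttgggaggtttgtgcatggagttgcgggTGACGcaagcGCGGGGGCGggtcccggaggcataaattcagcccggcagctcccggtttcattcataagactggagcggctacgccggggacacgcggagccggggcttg
Fos, chr12:85473640-85473939, plus strand: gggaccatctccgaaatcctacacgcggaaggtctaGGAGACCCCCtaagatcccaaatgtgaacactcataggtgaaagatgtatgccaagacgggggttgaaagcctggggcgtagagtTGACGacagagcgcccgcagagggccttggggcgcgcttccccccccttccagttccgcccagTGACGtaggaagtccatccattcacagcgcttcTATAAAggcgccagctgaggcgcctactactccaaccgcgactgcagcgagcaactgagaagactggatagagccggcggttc
Atf3, chr1:191183284-191183583, minus strand: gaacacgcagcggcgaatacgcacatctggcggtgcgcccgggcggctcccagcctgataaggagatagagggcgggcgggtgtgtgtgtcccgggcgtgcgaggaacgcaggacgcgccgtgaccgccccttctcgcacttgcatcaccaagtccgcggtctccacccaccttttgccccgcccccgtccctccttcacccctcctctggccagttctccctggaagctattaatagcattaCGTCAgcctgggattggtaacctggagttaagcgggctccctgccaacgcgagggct
Dusp5, chr19:53528895-53529194, plus strand: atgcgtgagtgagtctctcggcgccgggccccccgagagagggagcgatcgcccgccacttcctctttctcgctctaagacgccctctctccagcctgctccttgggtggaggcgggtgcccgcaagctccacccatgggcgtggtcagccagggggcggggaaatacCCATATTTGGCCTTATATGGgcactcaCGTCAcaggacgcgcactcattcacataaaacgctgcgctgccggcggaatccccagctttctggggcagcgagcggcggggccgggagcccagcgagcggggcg

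Each of the 6 windows held at least 1 CRE core, letters that CREB recognises. Counted from the start site, Fos had 2, beginning at -129 and -66, with TATAAA at -33. Npas4 had 2, beginning at -179 and -169 and on opposite strands, and Egr4 had 2, at -177 and -109. Dusp5 carried 2 adjoining CArG boxes, the element bound by SRF, beginning at -82 and -72, and Fosb 1 EGR site at -50. A kappaB match stood in the windows of Egr4, Fosb and Fos and in none of Npas4, Atf3 and Dusp5. Among all members it was found for Bdnf, Egr4, Fos, Fosb, Fosl2 and Nr4a1, which fell at 1 day, and for Maff, which rose. Over all 46 member windows 56.5% held a CRE core (20 of 30 genes), beside 20.8% of all 32851 windows. An EGR site was in 21.7% beside 5.55%, a CArG box in 10.9% beside 1.63%, a kappaB site in 15.2% beside 4.51%, the full CRE in 6.52% beside 1.79%, an AP-1 site in 4.35% beside 7.81% and TATAAA in 13.0% beside 13.6%. The CArG box windows are 4 of Egr2, of which 3 overlap, and that of Dusp5. Member windows were richer in G and C (median 61.7% beside 52.7%), and the full CRE contains the core. By response at 1 day, the core was found in 15 of 21 matched members that fell, 4 of 6 that rose and 1 of 3 that did not pass. A match describes letters, not binding.

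Among AP-1 and related leucine zipper factors, which pair to bind DNA, 6 of 8 members fell and 2 rose 1 day after LPS. Of all genes 24.2% fell and 24.9% rose. Fos (chromosome 12, 85520664 to 85524047, GRCm39), the classic marker of recent neuronal activity, had 52.1, 52.3 and 46.2 CPM in PBS, 21.2, 23.9 and 22.0 CPM 1 day after LPS and 44.2, 46.6 and 47.2 CPM at 7 days. All 3 libraries at 1 day lay below all others, whereas PBS and 7 days overlapped. Its log2 fold change (± SE here and for each log2 fold change that follows) was -1.16 ± 0.07 at 1 day, -0.13 ± 0.07 at 7 days and 1.04 ± 0.07 between the LPS groups (edgeR adjusted p = 7.71e-19, 0.132 and 2.33e-17). The 95% interval of the 7 day difference from PBS was -0.26 to 0.01.

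Fosb, whose transcripts also give the long-lived variant DeltaFosB, had 24.7, 21.8 and 19.8 CPM in PBS, 8.56, 10.4 and 10.5 CPM 1 day after LPS and 10.4, 13.6 and 13.5 CPM at 7 days. Here both LPS groups lay below PBS without overlap, and they overlapped each other. The log2 fold change was -1.17 ± 0.11 at 1 day, -0.82 ± 0.11 at 7 days and 0.34 ± 0.12 between the LPS groups (edgeR adjusted p = 2.35e-12, 9.49e-09 and 0.0135). The call between the LPS groups was lost when LPS 1 day replicate 1, LPS 7 day replicate 2 or LPS 7 day replicate 3 was left out (edgeR adjusted p = 0.0896, 0.0794 and 0.0659, with 0.00135 to 0.0896 over 15 alternatives). Fos and Fosb thus had similar falls at 1 day, and at 7 days Fosb was called lower than PBS and Fos was not, a difference between genes that was not itself tested.

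The other factors of this family that fell did so by less. Fosl2, a Fos relative, had 49.9 to 59.8 CPM in PBS, 43.2 to 46.2 CPM 1 day after LPS and 37.3 to 40.2 CPM at 7 days, and stood lowest at 7 days. For Fosl2 the log2 fold change was -0.34 ± 0.07 at 1 day, -0.54 ± 0.07 at 7 days and -0.20 ± 0.07 between the LPS groups (edgeR adjusted p = 3.1e-05, 2.06e-09 and 0.0103). The last of these was lost without LPS 1 day replicate 2 (edgeR adjusted p = 0.0585) or with plain library totals (0.0633), over a range of 0.00657 to 0.0633. Junb, a Jun relative that is itself induced, had 67.2 to 69.9 CPM in PBS, 43.5 to 45.4 CPM 1 day after LPS and 43.8 to 47.2 CPM at 7 days. Its LPS groups overlapped and both lay below PBS, at -0.63 ± 0.06 and -0.60 ± 0.06 (edgeR adjusted p = 1.04e-12 and 2.64e-12). The Junb locus overlaps 351 bases of Prdx2 on the other strand, and since the sources used here give no strand setting of the counting, reads there cannot be told apart.

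Jun, the main partner of Fos, changed least of this family at 1 day, with 89.8 to 93.8 CPM in PBS, 81.0 to 87.4 CPM 1 day after LPS and 74.6 to 81.1 CPM at 7 days. Its log2 fold changes were -0.14 ± 0.05 at 1 day and -0.25 ± 0.05 at 7 days (edgeR adjusted p = 0.0222 and 7.99e-05). The 1 day call was lost without PBS replicate 2, LPS 1 day replicate 1 or LPS 1 day replicate 2 (edgeR adjusted p = 0.0639, 0.0883 and 0.0744, range 0.0084 to 0.0883). Without LPS 1 day replicate 1 or LPS 7 day replicate 3, Jun was also called lower at 7 days than at 1 day (0.0498 and 0.0334, range 0.0334 to 0.374). Jund, the most constant family member in most cells, had 9.87 to 11.6 CPM in PBS, 7.17 to 7.66 CPM 1 day after LPS and 7.11 to 8.33 CPM at 7 days, lower in both LPS groups at -0.54 ± 0.13 and -0.47 ± 0.13 (edgeR adjusted p = 0.000647 and 0.00314).

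Maff and Atf3 went the other way. Maff (chromosome 15, 79230821 to 79243276), a small Maf protein that pairs with NRF2 and other factors, had 1.76, 1.90 and 1.57 CPM in PBS, 7.86, 7.91 and 6.27 CPM 1 day after LPS and 1.78, 1.73 and 2.01 CPM at 7 days. The 1 day libraries lay above all others, and the PBS and 7 day libraries overlapped. Its log2 fold change was 2.06 ± 0.21 at 1 day, 0.08 ± 0.26 at 7 days and -1.99 ± 0.21 between the LPS groups (edgeR adjusted p = 1.01e-11, 0.85 and 7.96e-12). Atf3 (chromosome 1, 190902493 to 190950236), a stress-induced factor that dampens inflammatory genes in macrophages, was rare, with 0.705, 0.443 and 0.954 CPM in PBS, 2.39, 2.55 and 1.52 CPM 1 day after LPS and 0.613, 0.370 and 0.118 CPM at 7 days. These rest on 2 to 41 counts per library, the fewest of all members. The 3 libraries at 1 day were again above the others. For Atf3 the log2 fold change was 1.61 ± 0.38 at 1 day, -0.92 ± 0.52 at 7 days and -2.53 ± 0.43 between the LPS groups (edgeR adjusted p = 0.000432, 0.171 and 1.62e-06). For the 7 day difference of Atf3 from PBS the 95% interval was -1.96 to 0.12, wide enough to hold both no change and a clear fall.

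The 4 EGR zinc finger factors bind GC-rich sites in the promoters of activity-regulated genes. All 4 fell at 1 day, beside 24.2% of all genes, and all 4 were lower than PBS at 7 days, beside 18.9%. Egr1, the best known of them, had 203, 190.0 and 194 CPM in PBS, 86.6, 89.8 and 84.8 CPM 1 day after LPS and 108, 123 and 122 CPM at 7 days. The 3 groups did not overlap, and 7 days lay between the other groups. For Egr1 the log2 fold change was -1.17 ± 0.05 at 1 day, -0.73 ± 0.05 at 7 days and 0.44 ± 0.05 between the LPS groups (edgeR adjusted p = 3.15e-26, 7.31e-19 and 1.1e-10). Egr2 (chromosome 10, 67371305 to 67378018), also the regulator of myelination in Schwann cells, showed the deepest fall of all members, with 14.9, 14.5 and 14.6 CPM in PBS, 4.93, 3.92 and 3.59 CPM 1 day after LPS and 8.03, 9.01 and 7.40 CPM at 7 days. Its log2 fold change was -1.84 ± 0.14 at 1 day, -0.85 ± 0.12 at 7 days and 0.99 ± 0.15 between the LPS groups (edgeR adjusted p = 1.2e-15, 1.43e-07 and 2.26e-07), and again the 3 groups were separate.

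Egr4 (chromosome 6, 85488103 to 85490571), a neuronal family member, had 23.7, 30.8 and 28.1 CPM in PBS, 7.63, 9.53 and 8.28 CPM 1 day after LPS and 13.8, 15.0 and 18.3 CPM at 7 days. The order was the same as for Egr1 and Egr2, PBS above 7 days above 1 day with no overlap. For Egr4 the log2 fold change was -1.69 ± 0.11 at 1 day, -0.81 ± 0.10 at 7 days and 0.88 ± 0.12 between the LPS groups (edgeR adjusted p = 9.6e-18, 4.5e-09 and 1.51e-08). Egr3 differed in its course, with 114, 116 and 113 CPM in PBS, 71.3, 72.0 and 67.1 CPM 1 day after LPS and 64.7, 70.9 and 76.6 CPM at 7 days. Its LPS groups overlapped. The log2 fold change was -0.70 ± 0.05 at 1 day, -0.69 ± 0.05 at 7 days and 0.01 ± 0.06 between the LPS groups (edgeR adjusted p = 9.16e-16, 7.53e-16 and 0.845), and the 95% interval between the LPS groups was -0.10 to 0.13. Egr1, Egr2 and Egr4 were thus called higher at 7 days than at 1 day and Egr3 was not.

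NR4A orphan nuclear receptors, which act without a known physiological ligand, and Npas4 all fell at 1 day, beside 24.2% of all genes. Npas4 (chromosome 19, 5034383 to 5040344), a factor induced almost only by calcium entry in neurons, had 27.2, 26.3 and 23.5 CPM in PBS, 9.87, 9.10 and 12.1 CPM 1 day after LPS and 20.6, 19.6 and 24.3 CPM at 7 days. The 1 day libraries stood apart below, and 1 library at 7 days reached into the PBS range. Its log2 fold change was -1.31 ± 0.11 at 1 day, -0.26 ± 0.09 at 7 days and 1.05 ± 0.11 between the LPS groups (edgeR adjusted p = 7.18e-15, 0.027 and 5.62e-12). The small 7 day fall against PBS was no longer called without PBS replicate 1 or 2, without LPS 7 day replicate 1 or 2, with plain library totals or with DESeq2 (adjusted p = 0.12, 0.0779, 0.0851, 0.164, 0.0608 and 0.0707, range 0.00511 to 0.164).

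Nr4a1, also known as Nur77, had 109, 100.5 and 98.8 CPM in PBS, 48.9, 50.6 and 56.4 CPM 1 day after LPS and 64.3, 75.8 and 72.4 CPM at 7 days. No groups overlapped, with 7 days in between. For Nr4a1 the log2 fold change was -0.98 ± 0.06 at 1 day, -0.54 ± 0.06 at 7 days and 0.44 ± 0.06 between the LPS groups (edgeR adjusted p = 2.3e-19, 3.47e-11 and 2.14e-08). Nr4a3 followed the same order, with 42.0, 42.6 and 38.3 CPM in PBS, 23.5, 25.2 and 24.3 CPM 1 day after LPS and 28.4, 29.8 and 32.1 CPM at 7 days. For Nr4a3 the log2 fold change was -0.75 ± 0.08 at 1 day, -0.45 ± 0.07 at 7 days and 0.30 ± 0.08 between the LPS groups (edgeR adjusted p = 8.68e-12, 1.6e-06 and 0.000797). Nr4a2, which is needed for midbrain dopamine neurons, moved least in this family, with 44.6, 42.6 and 42.8 CPM in PBS, 33.7, 33.6 and 37.1 CPM 1 day after LPS and 38.9, 41.5 and 43.0 CPM at 7 days. Only its 1 day libraries stood apart. The log2 fold change was -0.32 ± 0.07 at 1 day, -0.08 ± 0.07 at 7 days and 0.24 ± 0.07 between the LPS groups (edgeR adjusted p = 0.000148, 0.399 and 0.00277), and the 95% interval for 7 days against PBS was -0.21 to 0.06.

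**Figure D5:**
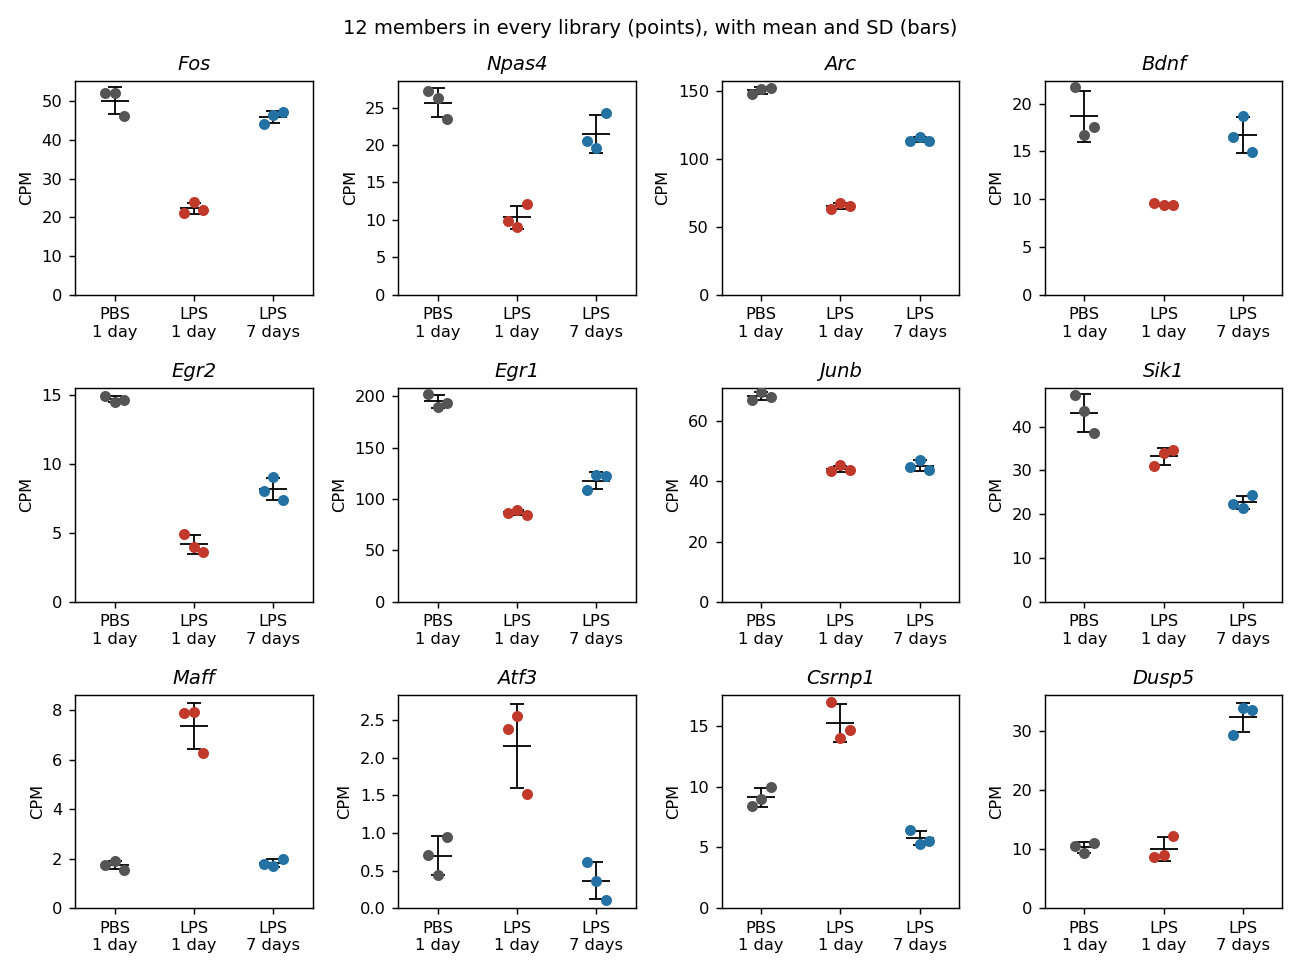
For 12 members of different roles the CPM of every library is drawn as a point, with the group mean and SD as bars, and each axis starts at 0. Fos, Npas4, Arc, Bdnf, Egr2 and Egr1 are lowest at 1 day, Junb and Sik1 are low in both LPS groups, Maff, Atf3 and Csrnp1 peak at 1 day, and Dusp5 stands at 29.5 to 34.0 CPM at 7 days against 8.79 to 12.4 CPM in the other libraries.

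Kruppel-like factors and Csrnp1, a group with roles in vessels and stress as well as in neurons, were mixed at 1 day. There 3 members were up and 2 down, beside 24.9% and 24.2% of all genes. All 5 were lower than PBS at 7 days, beside 18.9%. Csrnp1 (chromosome 9, 119800229 to 119813724), a nuclear protein first found as induced by axin, had 8.40, 8.99 and 9.95 CPM in PBS, 17.0, 14.0 and 14.7 CPM 1 day after LPS and 6.43, 5.31 and 5.56 CPM at 7 days. The 3 groups were separate, with 1 day highest and 7 days lowest. For Csrnp1 the log2 fold change was 0.74 ± 0.12 at 1 day, -0.66 ± 0.14 at 7 days and -1.39 ± 0.13 between the LPS groups (edgeR adjusted p = 1.5e-06, 0.000114 and 2.5e-13). Its whole deposited span of 13496 bases lies within that of the microglial receptor Cx3cr1 on the same strand, so that its counts are uncertain. Cx3cr1 itself had 43.4 ± 4.92 CPM in PBS, 36.2 ± 0.666 CPM at 1 day and 45.1 ± 1.38 CPM at 7 days (mean ± SD, n = 3), and how reads were assigned between the 2 genes was not tested.

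Klf6, a broadly expressed factor induced by injury, had 42.9, 41.8 and 42.2 CPM in PBS, 60.0, 54.5 and 52.0 CPM 1 day after LPS and 35.2, 35.8 and 33.7 CPM at 7 days. It too was highest at 1 day and lowest at 7 days without overlap. For Klf6 the log2 fold change was 0.39 ± 0.06 at 1 day, -0.28 ± 0.07 at 7 days and -0.66 ± 0.07 between the LPS groups (edgeR adjusted p = 1.77e-06, 0.00083 and 1.94e-12). Klf4, which restrains inflammation in endothelium, had 7.05, 8.23 and 8.52 CPM in PBS, 9.33, 12.5 and 10.9 CPM 1 day after LPS and 6.01, 5.37 and 6.98 CPM at 7 days, again without overlap. For Klf4 the log2 fold change was 0.47 ± 0.14 at 1 day, -0.37 ± 0.15 at 7 days and -0.84 ± 0.14 between the LPS groups (edgeR adjusted p = 0.00382, 0.0443 and 1.5e-06). Its 1 day call was lost without LPS 1 day replicate 2 (edgeR adjusted p = 0.0541, range 0.00173 to 0.0541). The 7 day call against PBS was lost in 7 of 15 alternatives, namely plain library totals, DESeq2, a fit of only the 2 groups, and leaving out PBS replicate 2 or 3 or LPS 7 day replicate 1 or 2 (adjusted p = 0.053 to 0.19 in those, range 0.0209 to 0.19).

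Klf2, the flow-induced factor of quiescent endothelium, and Klf10, a factor induced by TGF-beta, fell at 1 day. Klf2 had 12.2, 13.4 and 12.6 CPM in PBS, 8.09, 9.78 and 8.16 CPM 1 day after LPS and 5.39, 8.39 and 7.28 CPM at 7 days. Both LPS groups lay below PBS. For Klf2 the log2 fold change was -0.55 ± 0.13 at 1 day, -0.85 ± 0.13 at 7 days and -0.31 ± 0.14 between the LPS groups (edgeR adjusted p = 0.000546, 6.71e-07 and 0.0599), and without LPS 7 day replicate 2 it was also called lower at 7 days than at 1 day (edgeR adjusted p = 0.0144, range 0.0144 to 0.405). Klf10 had 22.7, 24.5 and 23.2 CPM in PBS, 16.2, 16.7 and 16.8 CPM 1 day after LPS and 18.4, 18.1 and 18.0 CPM at 7 days. For Klf10 the log2 fold change was -0.50 ± 0.09 at 1 day, -0.36 ± 0.09 at 7 days and 0.14 ± 0.09 between the LPS groups (edgeR adjusted p = 6.62e-06, 0.000662 and 0.208). Beside these genes of vessels, 10 endothelial markers summed to 311 to 318 CPM in PBS, 350.0 to 357 CPM 1 day after LPS and 369.6 to 389.7 CPM at 7 days. Singly, 4 rose, 4 fell and 2 did not pass at 1 day, where 24.9% of all genes rose and 24.2% fell. At 7 days against PBS 6 rose, 0 fell and 4 did not pass, where 16.8% of all genes rose and 18.9% fell. Cdh5 alone had mean levels of 23.9, 57.7 and 25.8 CPM (PBS, then 1 day and 7 days after LPS). Whether a change in endothelium takes part in the Klf values was not tested.

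MAP kinase phosphatases remove the activating phosphates from ERK, JNK and p38, and are induced by the kinases they switch off. Dusp1, which acts on p38 and JNK, had 62.3, 61.0 and 63.5 CPM in PBS, 50.0, 46.7 and 49.8 CPM 1 day after LPS and 52.3, 49.3 and 52.0 CPM at 7 days. The LPS groups lay below PBS. For Dusp1 the log2 fold change was -0.35 ± 0.06 at 1 day, -0.28 ± 0.06 at 7 days and 0.07 ± 0.06 between the LPS groups (edgeR adjusted p = 2.24e-06, 9.3e-05 and 0.334). Its locus overlaps 640 bases of Ergic1 on the other strand, so that reads there cannot be told apart without strand. Dusp6, the cytoplasmic ERK phosphatase, had 62.9, 60.7 and 58.5 CPM in PBS, 48.6, 45.0 and 46.7 CPM 1 day after LPS and 44.9, 49.6 and 45.1 CPM at 7 days. For Dusp6 the log2 fold change was -0.38 ± 0.06 at 1 day, -0.38 ± 0.06 at 7 days and -0.00 ± 0.06 between the LPS groups (edgeR adjusted p = 1.05e-06, 7.72e-07 and 0.954), and the LPS groups overlapped. Dusp4, a nuclear phosphatase, had 17.0, 14.4 and 19.2 CPM in PBS, 8.79, 9.59 and 9.80 CPM 1 day after LPS and 15.7, 14.6 and 15.6 CPM at 7 days. It was low at 1 day only. For Dusp4 the log2 fold change was -0.84 ± 0.11 at 1 day, -0.14 ± 0.10 at 7 days and 0.70 ± 0.11 between the LPS groups (edgeR adjusted p = 2.35e-08, 0.32 and 9.05e-07).

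Dusp5 (chromosome 19, 53517540 to 53530862), the nuclear phosphatase specific for ERK, was the only member called higher at 7 days than in PBS, with 10.6, 9.37 and 11.1 CPM in PBS, 8.79, 9.10 and 12.4 CPM 1 day after LPS and 29.5, 34.0 and 33.7 CPM at 7 days. The 7 day libraries lay above all others, and those of PBS and LPS at 1 day overlapped. Its log2 fold change was -0.03 ± 0.12 at 1 day, 1.65 ± 0.10 at 7 days and 1.67 ± 0.11 between the LPS groups (edgeR adjusted p = 0.872, 4.7e-19 and 2.19e-19), which is 3.13 times the PBS level at 7 days. Cerebellar markers rose in the same 7 day libraries in 12 of 12 tested genes (median log2 fold change 3.82 against PBS), as did 6 of 8 oligodendrocyte markers, with Mbp at 5175 ± 363 CPM against 3667 ± 203 CPM in PBS (mean ± SD, n = 3). Of all genes 16.8% rose at 7 days against PBS. Whether RNA of cerebellar cells or oligodendrocytes takes part in the Dusp5 value was not tested. Rps6ka1, the ERK-activated kinase RSK1, was higher in the same libraries, at 1.45 ± 0.08 against PBS (edgeR adjusted p = 4.04e-22).

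All 6 effectors that act at synapses or outside the cell fell at 1 day, when 24.2% of all genes fell. Arc (chromosome 15, 74540932 to 74544419), which removes AMPA receptors from synapses, had 148, 152 and 152 CPM in PBS, 63.2, 67.5 and 65.1 CPM 1 day after LPS and 113, 116 and 114 CPM at 7 days. No groups overlapped, with 7 days between 1 day and PBS. For Arc the log2 fold change was -1.20 ± 0.05 at 1 day, -0.39 ± 0.05 at 7 days and 0.81 ± 0.05 between the LPS groups (edgeR adjusted p = 7.32e-27, 2.6e-10 and 3.77e-20). Bdnf, the neurotrophin that acts through TrkB, had 21.7, 16.7 and 17.6 CPM in PBS, 9.56, 9.35 and 9.37 CPM 1 day after LPS and 16.5, 18.7 and 15.0 CPM at 7 days. At 1 day it stood at 0.503 times its PBS level, while 7 days and PBS overlapped. For Bdnf the log2 fold change was -0.99 ± 0.11 at 1 day, -0.16 ± 0.10 at 7 days and 0.83 ± 0.11 between the LPS groups (edgeR adjusted p = 3.26e-10, 0.23 and 2.17e-08). Inhba, a subunit of activin, had 8.81 to 9.68 CPM in PBS, 4.86 to 6.45 CPM 1 day after LPS and 7.59 to 8.52 CPM at 7 days, and fell at 1 day, at -0.73 ± 0.14 (edgeR adjusted p = 3.11e-05) with no call at 7 days against PBS (0.225).

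Rgs2, which speeds the shutdown of Gq signalling, had 76.1, 82.1 and 75.0 CPM in PBS, 45.9, 44.5 and 44.1 CPM 1 day after LPS and 56.1, 49.7 and 53.2 CPM at 7 days. The 3 groups were separate with 7 days in between. For Rgs2 the log2 fold change was -0.80 ± 0.06 at 1 day, -0.55 ± 0.06 at 7 days and 0.24 ± 0.06 between the LPS groups (edgeR adjusted p = 5.1e-16, 2.07e-11 and 0.000715). Nptx2, a secreted pentraxin that gathers AMPA receptors, had 48.8, 51.8 and 55.6 CPM in PBS, 36.1, 33.9 and 34.5 CPM 1 day after LPS and 29.2, 31.0 and 30.2 CPM at 7 days. It fell further by 7 days. For Nptx2 the log2 fold change was -0.58 ± 0.07 at 1 day, -0.79 ± 0.07 at 7 days and -0.21 ± 0.07 between the LPS groups (edgeR adjusted p = 6.16e-10, 5.29e-14 and 0.0122), though the last call was lost without LPS 1 day replicate 1 (edgeR adjusted p = 0.0505) and with plain library totals (0.0709), over a range of 0.0115 to 0.0709. Homer1, a scaffold of glutamate receptors, had 120.4 to 129 CPM in PBS, 92.5 to 94.7 CPM 1 day after LPS and 81.0 to 98.2 CPM at 7 days, lower in both LPS groups at -0.42 ± 0.05 and -0.49 ± 0.05 (edgeR adjusted p = 3.79e-09 and 2.68e-11). Without LPS 7 day replicate 1 it was also called lower at 7 days than at 1 day (edgeR adjusted p = 0.0121, range 0.0121 to 0.836). Gene counts do not separate its short activity-induced isoform from the long one, nor the several transcripts of Bdnf.

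Of the 8 regulators of growth, stress and signalling 3 fell, 1 rose and 4 did not pass at 1 day. The 50.0% called is close to the 49.1% of all genes. Sik1, a kinase induced by CREB that in turn holds CREB coactivators out of the nucleus, had 47.4, 43.6 and 38.5 CPM in PBS, 31.1, 34.0 and 34.8 CPM 1 day after LPS and 22.4, 21.4 and 24.3 CPM at 7 days. It stepped down from PBS to 1 day to 7 days without overlap. For Sik1 the log2 fold change was -0.38 ± 0.08 at 1 day, -0.93 ± 0.08 at 7 days and -0.55 ± 0.08 between the LPS groups (edgeR adjusted p = 5.05e-05, 2.3e-14 and 8.79e-08). Tiparp, a mono-ADP-ribosyltransferase known as a target of the aryl hydrocarbon receptor, had 22.5, 22.4 and 21.7 CPM in PBS, 23.3, 27.5 and 26.7 CPM 1 day after LPS and 15.9, 14.9 and 16.4 CPM at 7 days. Its log2 fold change was 0.22 ± 0.09 at 1 day, -0.50 ± 0.09 at 7 days and -0.72 ± 0.09 between the LPS groups (edgeR adjusted p = 0.0297, 1.2e-05 and 1.48e-09). The small rise at 1 day was lost with DESeq2 and without PBS replicate 1, 2 or 3 or LPS 1 day replicate 2 or 3 (adjusted p = 0.0506 to 0.148 in those, range 0.0105 to 0.148).

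Ier5, an immediate early gene of the stress response, had 23.4, 23.5 and 23.8 CPM in PBS, 16.0, 15.2 and 15.5 CPM 1 day after LPS and 18.3, 24.2 and 20.9 CPM at 7 days. Only the 1 day libraries stood apart. For Ier5 the log2 fold change was -0.60 ± 0.10 at 1 day, -0.16 ± 0.09 at 7 days and 0.44 ± 0.10 between the LPS groups (edgeR adjusted p = 7.48e-07, 0.184 and 9.92e-05), and without LPS 7 day replicate 2 it was also called lower at 7 days than in PBS (edgeR adjusted p = 0.0368, range 0.0368 to 0.672). Trib1, a pseudokinase that sends C/EBP factors to degradation, had 22.0, 22.7 and 22.3 CPM in PBS, 25.4, 22.4 and 23.8 CPM 1 day after LPS and 17.6, 17.0 and 18.3 CPM at 7 days. It was lower at 7 days than in both 1 day groups. For Trib1 the log2 fold change was 0.09 ± 0.09 at 1 day, -0.34 ± 0.09 at 7 days and -0.43 ± 0.09 between the LPS groups (edgeR adjusted p = 0.371, 0.00165 and 3.56e-05). Btg2, an antiproliferative gene, fell at 1 day (-0.37 ± 0.10, edgeR adjusted p = 0.00173) and did not pass at 7 days (-0.22 ± 0.10, edgeR adjusted p = 0.0641, but 0.0101 without LPS 7 day replicate 3, range 0.0101 to 0.301).

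Ier2, Gadd45b and Gadd45g gave no call against PBS at either time. Ier2, a partner-binding immediate early gene, had 8.58 to 10.6 CPM in PBS, 8.25 to 10.7 CPM 1 day after LPS and 9.56 to 13.0 CPM at 7 days. Gadd45g, a growth arrest gene, had 12.3 to 14.4 CPM in PBS, 9.40 to 13.8 CPM 1 day after LPS and 12.1 to 13.0 CPM at 7 days, ranges that overlap throughout. The 95% intervals at 1 day were -0.23 to 0.30 for Ier2 and -0.38 to 0.09 for Gadd45g on the log2 scale. Gadd45b, which takes part in DNA demethylation and stress signalling, had 8.52 to 10.3 CPM in PBS, 10.4 to 11.8 CPM 1 day after LPS and 6.85 to 9.58 CPM at 7 days, and was lower at 7 days than at 1 day (-0.43 ± 0.13, edgeR adjusted p = 0.00455), a call lost without LPS 7 day replicate 2 (0.0618, range 0.00126 to 0.0618).

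Levels can be compared between genes only per length, as FPKM (counts scaled by gene length and library total). On this scale Arc was the most abundant member in PBS, with group means of 49.0, 21.0 and 38.3 FPKM (PBS, then 1 day and 7 days after LPS). Egr1 followed with 43.3, 19.1 and 26.9, then Junb with 29.6, 18.9 and 20.1, Nr4a1 with 29.1, 14.5 and 20.6 and Jun with 28.7, 25.8 and 24.8. The PBS values of the last 3 were 29.6 ± 0.698, 29.1 ± 1.46 and 28.7 ± 0.633 FPKM (mean ± SD, n = 3), which does not set an order among them. At 1 day Jun had the highest mean, above Arc and Egr1. Dusp5 moved from place 31 of 39 in PBS to place 11 at 7 days, and Egr4 from place 12 in PBS to place 29 at 1 day. Atf3 was last in PBS, with 0.324, 0.983 and 0.175 FPKM in the 3 groups.

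Other genes of the pathway were split in direction at 1 day. Of 32 further activity-induced genes, none of them among the 39, 31 were tested, of which 10 rose, 11 fell and 10 did not pass (median log2 fold change 0.03). That is 32.3% higher beside 24.9% of all genes and 35.5% lower beside 24.2%. Rgs4, a regulator of G protein signalling, and Vgf, a secreted neuropeptide precursor, fell, at -0.70 ± 0.04 and -0.74 ± 0.05 (edgeR adjusted p = 6.57e-21 and 2.74e-19). Errfi1, an inhibitor of the EGF receptor, and Per1, a clock gene, rose by 0.93 ± 0.06 and 0.62 ± 0.04 (edgeR adjusted p = 1.25e-19 and 2.55e-17), and both are also glucocorticoid targets. At 7 days against PBS 2 of the 31 rose, 13 fell and 16 did not pass (median -0.15), with Rgs4 at -0.87 ± 0.04 and the Ras activator gene Rasgrp1 at -0.74 ± 0.04 (edgeR adjusted p = 6.46e-25 and 8.36e-24). Here 6.45% were higher beside 16.8% of all genes and 41.9% lower beside 18.9%. Between the LPS groups 6 were higher, 15 lower and 10 did not pass (median -0.17), with Per1 at -1.29 ± 0.04 (edgeR adjusted p = 5.83e-30). These are 19.4% higher beside 27.5% of all genes and 48.4% lower beside 29.1%.

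Genes that carry the signal from calcium and ERK to the promoters were measured as 28 genes, all tested. At 1 day 12 rose, 6 fell and 10 did not pass (median 0.07). That is 42.9% higher beside 24.9% of all genes and 21.4% lower beside 24.2%. Crebbp, the CREB coactivator CBP, and Camk2a, a calcium-dependent kinase, rose by 0.54 ± 0.05 and 0.30 ± 0.03 (edgeR adjusted p = 3.81e-12 and 1.57e-10). Camkk2, the kinase upstream of CaMKIV, fell, at -0.35 ± 0.04 (edgeR adjusted p = 7.15e-10). At 7 days against PBS 3 rose, 19 fell and 6 did not pass (median -0.16), with Mef2c, a transcription factor of activity-regulated genes, at -0.76 ± 0.04 and Camk2a at -0.66 ± 0.03 (edgeR adjusted p = 4.96e-23 and 1.12e-22). Here 10.7% were higher beside 16.8% of all genes and 67.9% lower beside 18.9%. Between the LPS groups 5 were higher, 19 lower and 4 did not pass (median -0.23). These are 17.9% higher beside 27.5% of all genes and 67.9% lower beside 29.1%. RNA of these components says nothing about their activity, which phosphorylation sets.

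Glucocorticoid-induced genes, some of which are also immediate early genes in other settings, ran in a different order from most members. All 15 tested of 16 rose at 1 day (median 0.87), with Cdkn1a, a cell cycle inhibitor, at 2.23 ± 0.07 and Fkbp5, a co-chaperone of the receptor, at 1.76 ± 0.06 (edgeR adjusted p = 7.05e-31 and 2.39e-29). At 7 days 0 rose, 11 fell and 4 did not pass against PBS (median -0.41), among them the kinase gene Sgk1 at -1.31 ± 0.04 (edgeR adjusted p = 3.39e-30). All 15 were lower at 7 days than at 1 day (median -1.36). Of all genes, 24.9% rose at 1 day, 18.9% fell at 7 days against PBS and 29.1% were lower between the LPS groups. The untested member, Mt2, had no count in any library. Dusp1, a member that glucocorticoids induce in many tissues, was lower in both LPS groups. Csrnp1, Klf4, Klf6 and Tiparp were called higher at 1 day and lower than PBS at 7 days, with the limits given above. A part of glucocorticoids in the values of the members was not tested.

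Markers of regions and cell types moved beside the members as follows. Over all genes tested 24.9% rose and 24.2% fell at 1 day, and 16.8% rose and 18.9% fell at 7 days against PBS. At 1 day striatal markers fell in 12 of 13 genes (median -0.76), PVT markers in 8 of 11 (-0.40), hypothalamic markers in 8 of 10 (-0.70) and habenular markers in 4 of 8 (-0.28), with no rise in these lists. Cortical and hippocampal markers had 4 up, 1 down and 6 not passed (0.08), and general neuronal genes 3 up, 5 down and 2 not passed (-0.05). At 7 days against PBS striatal markers fell in 13 of 13 (-1.16) and cortical and hippocampal ones in 6 of 11, with 1 up (-0.13), while 6 of 10 general neuronal genes rose and 2 fell (0.14). Some markers serve in 2 lists, such as Drd2 for striatum and PVT and Calb1 for cerebellum and habenula. Between the LPS groups 8 of 13 striatal markers were lower at 7 days and 5 did not pass (-0.26), where 29.1% of all genes were lower. Striatal neurons are known to express Egr1, Arc and Nr4a1, and the part of the striatal shift in the changes of the members was not tested.

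Glial and vascular markers moved in both directions at 1 day, when 24.9% of all genes rose and 24.2% fell. Microglial genes had 4 up, 2 down and 4 not passed (summed CPM 271 to 292 in PBS and 315 to 333 at 1 day). Those up were C1qa, C1qb, C1qc and Csf1r, with C1qb at means of 18.0 CPM in PBS and 41.2 CPM at 1 day. Those down were P2ry12 (31.4 and 15.4 CPM) and Cx3cr1 (43.4 and 36.2 CPM). Astrocytic genes had 6 up and 2 down (summed CPM 3073 to 3158 in PBS and 3764 to 3794 at 1 day). Oligodendrocyte genes had 1 up, 6 down and 1 not passed, and endothelial genes 4 up, 4 down and 2 not passed. Choroid plexus and ependymal genes had 1 up, 2 down and 5 not passed. At 7 days against PBS 7 of these 8 choroid plexus and ependymal genes fell (median -0.87), among them Kl, the klotho gene, with mean levels of 38.3, 43.2 and 15.7 CPM (PBS, then 1 day and 7 days after LPS). Blood leukocyte markers were near the floor, at 7.63 to 10.4 CPM in sum over 10 genes in PBS and 12.9 to 14.3 CPM at 1 day, with Cd3e and Ly6g at 0 counts at 1 day. Only 4 of these genes could be tested, and 2 rose at 1 day, Lyz2 at 1.13 ± 0.23 and Ptprc at 0.46 ± 0.17 (edgeR adjusted p = 6.33e-05 and 0.0207), the lysozyme of myeloid cells and the leukocyte antigen CD45. Atf3, Maff and Klf4, which these cells can also express, were highest in the same 1 day libraries, and the part of each cell type, at 1 day or at 7 days, was not tested.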

How the data were processed

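RNA of the PVT was extracted with Trizol and made into libraries with a TruSeq RNA kit, per the labels' protocols. TopHat2, HISAT2, HTSeq and the GRCm39 build are named in the submitters' processing notes. The sources used here give no role, version or strand setting. The deposited table holds gene counts and FPKM values made by the authors for 9 libraries, with gene positions and lengths. FPKM recomputed from the counts and lengths differed from the deposited FPKM by at most 1.58e-07 of the value. Counts were tested with edgeR 4.0.16 (R 4.3.3): filterByExpr, TMM factors and a quasi-likelihood fit of all 9 libraries with a term for each of the 3 groups. P-values were adjusted by Benjamini-Hochberg over 14837 genes, and a gene was called at an adjusted p under 0.05. SE is the log2 fold change over the root of its F statistic. CPM uses TMM-scaled library totals. The procedure was tested on simulated counts. Values in every library are given for members with a mean of at least 1 CPM that were called in at least 1 comparison, up to 4 per role by the largest log2 fold change, and for members called against their role's majority. The members, gene lists and this rule were chosen with earlier results of these data known.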

Additional observations from a re-analysis of the deposited data

How the results depend on the processing

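The 117 member results (39 members, 3 comparisons) were recomputed under 15 alternatives: other normalisations, no filter on low counts, fits of the 2 groups compared, DESeq2, a replicate block and each library left out. In 103 the side of the threshold was kept throughout, and 14 crossed it at least once, as given beside each gene. The log2 fold change changed sign in 5 results, none of them called. With single libraries left out, Dusp5 at 1 day ranged from -0.208 to 0.0531 (above 0 without PBS replicate 3, LPS 1 day replicate 1 or 2) and Ier2 at 1 day from -0.0442 to 0.124. Between the LPS groups Egr3 ranged from -0.0457 to 0.0765, Gadd45g from -0.0642 to 0.184 and Dusp6 from -0.0510 to 0.0220. Dusp6 there was also 0.0518 with library totals, 0.0185 with upper-quartile factors, 0.00273 with no filter, 0.00849 with the 2 groups only and 9.62e-05 with DESeq2. The cause was not tested.

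Tested against a fold of 1.5, which asks more of each gene, 12, 4 and 9 members were called at 1 day, at 7 days and between the LPS groups (higher 2, 1 and 6, lower 10, 3 and 3), and 647, 539 and 1256 of all genes in place of 7289, 5287 and 8399. With single libraries left out, members called ranged from 31 to 34, 25 to 28 and 26 to 28 (higher 4 to 6, 1 to 1 and 15 to 16, lower 27 to 28, 24 to 27 and 10 to 12), and all genes from 6371 to 7484, 4629 to 5304 and 7584 to 8531. Deviations of same-numbered libraries from their group means correlated at -0.0232 to 0.0270, and 0 of 9 pairs passed 0.1. For libraries of other numbers the range was -0.0399 to 0.0566. No broad shift shared by replicate number was seen, and a shared factor that touches few genes was not tested. With the replicate number as a block 34, 27 and 27 members were called, and no member's call changed. Depth limits Atf3 most, with 2 to 41 counts per library.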
